A study of Homo sapiens with 16 samples.

Results

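The genes of serine, one-carbon and asparagine synthesis were followed across 16 RNA sequencing libraries of human myeloma cells. The 10 genes were PHGDH, PSAT1, PSPH, SHMT1, SHMT2, MTHFD1, MTHFD2, MTHFD1L, ALDH1L2 and ASNS, taken by symbol from the 23459 gene entries of the deposited table. These genes and all gene lists were chosen with earlier results of these data known. Their shares and medians set beside all genes are descriptions and not tests of enrichment. Levels are FPKM, sequenced fragments divided by exon length and by library size, so that levels of different genes can be compared per length. All 10 had a mean of at least 1 FPKM over the 12 libraries of the 3 parental lines and entered those tests, ALDH1L2 only through its level in KMS18. In the comparison of the Mcl1 line with its parent, ALDH1L2 was under that minimum and 9 were tested.

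The study asked how CD86 and its receptor CD28 act on the survival of myeloma cells. MM.1s, RPMI8226 and KMS18 are established human myeloma lines, and the fourth background was RPMI8226 engineered to overexpress Mcl1, an anti-apoptotic protein. Each background received the empty pLKO.1 vector (Vec) or an shRNA, a short hairpin RNA that lowers its target's transcript. The targets were CD28, CD86 and, as a control, Gapdh. Every combination has 1 library, so each shRNA was replicated over the 3 parental lines and never within a line. The Mcl1 background was 1 derived line, and neither the sequences nor the number of the hairpins are given in the sources read here. P-values therefore measure the spread between these libraries, which may be technical.

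PHGDH, PSAT1 and PSPH make serine from an intermediate of glycolysis. SHMT1 in the cytosol and SHMT2 in mitochondria split serine into glycine and a one-carbon unit carried by folate, and the MTHFD enzymes and ALDH1L2 oxidise, reduce or release that unit for purine and thymidylate synthesis and for NADPH. ASNS makes asparagine from aspartate and glutamine. Many of these genes are known targets of ATF4, the transcription factor of the amino acid and integrated stress responses, which acts through a composite element (CARE) in target promoters.

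RefSeq start-site windows of 300 bases (GRCh38.p14) were found for 7 of the 10 genes, namely PHGDH, PSAT1, SHMT1, MTHFD1, MTHFD2, MTHFD1L and ASNS. PSPH, SHMT2 and ALDH1L2 had none in the table. The letters TGATGNAA, a core of the CARE element, were searched on both strands. They were found in 4 of the 11 windows of these genes, which belong to ASNS and MTHFD1L and overlap within a gene, and in 3.62% of all 35116 windows. The 2 matches are printed, 5′ to 3′ on the strand of the gene, because ASNS is the textbook gene of this element; capitals mark the match. The ASNS match began 68 bases before a RefSeq start and lies in the 5′ UTR of the longer annotated transcripts (chr7:97872458-97872487, gene on the minus strand). The MTHFD1L match began 129 and 90 bases before 2 of its 4 starts and 25 bases after another (chr6:150866346-150866375, plus strand).
ASNS: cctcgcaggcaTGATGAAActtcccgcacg
MTHFD1L: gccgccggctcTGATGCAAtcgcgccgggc
The MYC-type E-box CACGTG was found in 4 of the 11 windows, which belong to MTHFD1 and MTHFD1L, and in 7.26% of all windows. The MTHFD1L windows with a match overlap and hold the same site, so the 4 windows are not independent. A match describes letters only, and the levels of the 2 genes with a CARE match are given with the others.

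The targeted transcripts were checked before the 10 genes. GAPDH was at 10.7% to 53.0% of Vec in the 3 parental lines under Gapdh shRNA and at 21.3% in the Mcl1 line. CD28 was at 65.1% to 79.3% of Vec under CD28 shRNA in the parental lines, and CD86 at 44.1% to 76.2% under CD86 shRNA. CD28 passed (log2 difference -0.47, limma, adjusted p = 0.0295) but not with any 1 line left out (adjusted p 0.101 to 0.179). CD86 did not pass under its own shRNA (-0.62, adjusted p = 0.315). It rested on 18 to 106 reads in those libraries and on 48 to 145 with Vec. CD86 was also at 125% to 282% of Vec under CD28 shRNA in the parental lines and did not pass (log2 difference 0.71, limma, adjusted p = 0.142). Under the Gapdh shRNA control it was at 203% of Vec in MM.1s, 94.1% in RPMI8226 and 139% in KMS18. These CD86 levels rested on 48 to 186 reads per library. MCL1 ranged from 127 to 173 FPKM in the Mcl1 line and from 49.6 to 62.7 FPKM in RPMI8226, without overlap. MM.1s, at 115 to 145 FPKM, overlapped the Mcl1 line, and KMS18 was at 82.0 to 119 FPKM. Each library held 3914513 to 5900955 reads in genes. None of the 9 plasma cell markers found in the table was at 0 in all libraries (summed level 691 to 2047 FPKM), CD3D, MPO and COL3A1 were at 0 in all libraries, and the median marker of the T cell, myeloid and stromal lists was at most 0.146 FPKM in any library. The highest of those 30 markers were CD8B at up to 295 FPKM and CD68 at up to 87.3 FPKM, followed by CD3E at up to 7.21 FPKM. In bulk RNA, fewer cells of a kind and less RNA per cell cannot be told apart.

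Of the serine synthesis genes, PHGDH spanned the widest range between lines. PHGDH, the entry enzyme of the pathway, stood at 93.0 FPKM in KMS18, 9.41 in MM.1s, 1.39 in RPMI8226 and 19.8 in the Mcl1 line with Vec. With Gapdh shRNA it stood at 94.8, 7.33, 1.87 and 18.5 FPKM in the same order, with CD28 shRNA at 91.8, 5.53, 0.782 and 8.46, and with CD86 shRNA at 53.8, 6.71, 0.637 and 11.8. All 4 KMS18 libraries were above every other library and all 4 RPMI8226 libraries below every other, while MM.1s and the Mcl1 line overlapped. The mean in KMS18 (83.4 ± 19.7 FPKM, SD, n = 4 libraries) was 71.3 times that in RPMI8226 (1.17 ± 0.569), which rested on 18 to 48 reads per library. On the log2(FPKM + 1) scale, which understates changes of low genes, KMS18 was higher than RPMI8226 by 5.28 (SE 0.15; limma, adjusted p = 1.53e-10).

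PSAT1, the aminotransferase that follows PHGDH, had the same order of lines with a smaller span. Its Vec libraries stood at 134 FPKM in KMS18, 43.8 in MM.1s, 20.8 in RPMI8226 and 74.7 in the Mcl1 line. The Gapdh shRNA libraries stood at 123, 32.1, 22.5 and 63.7 FPKM, the CD28 shRNA libraries at 107, 26.9, 16.1 and 45.4, and the CD86 shRNA libraries at 55.9, 32.5, 20.1 and 52.3. The lowest KMS18 library, that with CD86 shRNA, lay among those of the Mcl1 line, and the RPMI8226 libraries were the lowest. PSPH, the phosphatase of the last step, was highest in KMS18 (12.1 to 22.3 FPKM) and lowest in MM.1s (2.95 to 4.80 FPKM), with RPMI8226 at 7.36 to 10.6 FPKM and the Mcl1 line at 10.8 to 17.5 FPKM. MM.1s thus had more PHGDH and PSAT1 than RPMI8226 (log2 differences 1.94 and 0.73, adjusted p = 6.28e-07 and 0.00493) but less PSPH (-1.10, adjusted p = 1.43e-05).

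**Figure D1:**
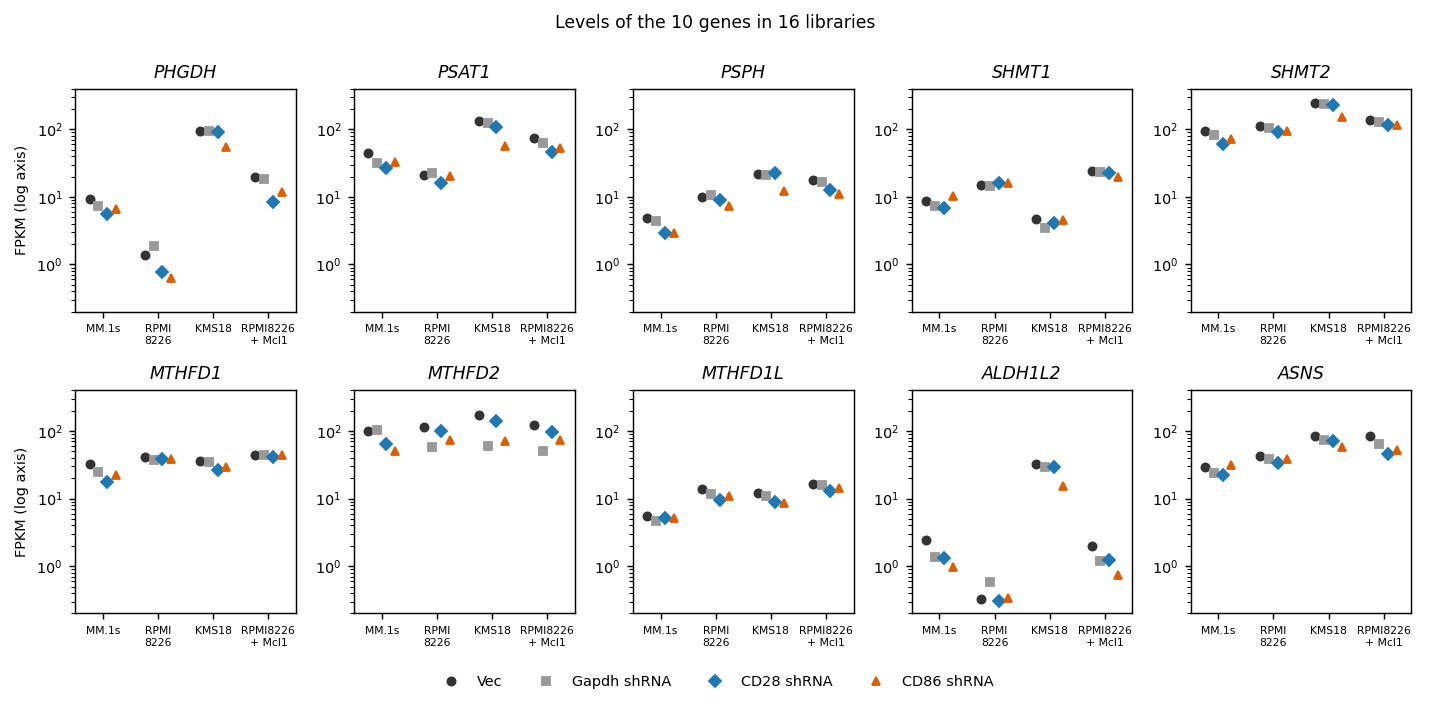
FPKM (log axis) of each of the 10 genes in the 4 backgrounds, 1 point per library, with symbols for Vec and for Gapdh, CD28 and CD86 shRNA. PHGDH and ALDH1L2 separate KMS18 from RPMI8226 most widely, whereas MTHFD2 libraries of all backgrounds lie between 51.2 and 174 FPKM.

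KMS18 had the most transcript of the mitochondrial and the least of the cytosolic serine hydroxymethyltransferase. SHMT2 was highest in KMS18, at 152 to 247 FPKM, against 59.6 to 94.6 in MM.1s, 92.2 to 113 in RPMI8226 and 114 to 139 in the Mcl1 line. SHMT1 was lowest in KMS18, at 3.42 to 4.78 FPKM, against 6.74 to 10.3 in MM.1s, 14.3 to 16.3 in RPMI8226 and 19.6 to 23.7 in the Mcl1 line. The lowest SHMT1 library of each background was above the highest library of the background before it in that order. The ratio of SHMT2 to SHMT1 in FPKM was 34.0 to 68.1 in KMS18, 6.85 to 11.2 in MM.1s, 5.65 to 7.46 in RPMI8226 and 5.07 to 5.84 in the Mcl1 line. Against RPMI8226, KMS18 was higher in SHMT2 by 1.06 (SE 0.11; adjusted p = 5.32e-06) and lower in SHMT1 by a log2 difference of -1.66 (SE 0.11; adjusted p = 1.22e-07).

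Among the folate enzymes, ALDH1L2, the mitochondrial formyl-tetrahydrofolate dehydrogenase that releases the one-carbon unit while making NADPH, varied almost as widely as PHGDH. Its level with Vec was 32.3 FPKM in KMS18, 2.40 in MM.1s, 0.324 in RPMI8226 and 2.01 in the Mcl1 line. The range over the 4 libraries was 15.2 to 32.3 FPKM in KMS18, 0.966 to 2.40 in MM.1s, 0.305 to 0.585 in RPMI8226 and 0.749 to 2.01 in the Mcl1 line, with 14 to 30 reads in the RPMI8226 libraries. KMS18 was above all others and RPMI8226 below all others, while MM.1s and the Mcl1 line overlapped. ALDH1L2 reached the minimum level only through KMS18, as its mean over the 8 libraries of MM.1s and RPMI8226 was 0.949 FPKM. With no minimum level KMS18 was higher than MM.1s by 3.44 on the log2 scale (limma, adjusted p = 7.63e-07). The cytosolic paralog ALDH1L1 was at most 0.165 FPKM in any library.

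MTHFD2, the mitochondrial methylene-tetrahydrofolate dehydrogenase and cyclohydrolase, was the member that passed in no comparison between parental lines (log2 differences -0.14 to 0.40, adjusted p 0.172 to 0.621). Its mean was 79.2 ± 25.9 FPKM in MM.1s, 87.0 ± 26.4 in RPMI8226 and 111 ± 54.7 in KMS18, with the Mcl1 line at 86.5 ± 31.5 (SD over 4 libraries with different shRNAs). The SD within each background exceeded the distance between the means of neighbouring backgrounds. Without the Gapdh shRNA libraries MTHFD2 passed as higher in KMS18 than in MM.1s (0.80, adjusted p = 0.000919) and as lower in MM.1s than in RPMI8226 (-0.47, adjusted p = 0.0143). MTHFD1, the trifunctional cytosolic enzyme, was lower in MM.1s (17.5 to 32.6 FPKM) than in RPMI8226 (37.3 to 40.8 FPKM), with KMS18 at 26.9 to 36.1 FPKM and the Mcl1 line at 41.4 to 44.4. MTHFD1L, the mitochondrial formate-producing synthetase, was lowest in MM.1s (4.70 to 5.44 FPKM) and did not pass between KMS18 (8.68 to 12.2 FPKM) and RPMI8226 (9.43 to 13.7 FPKM; log2 difference -0.16, 95% interval -0.40 to 0.07, adjusted p = 0.197). ASNS was at 22.0 to 31.3 FPKM in MM.1s, 34.0 to 43.0 in RPMI8226 and 57.2 to 85.7 in KMS18, with the Mcl1 line at 45.6 to 84.8. The MM.1s libraries were below all others, and those of KMS18 and the Mcl1 line overlapped.

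The lines differed at most of the 11316 genes tested. ALDH1L2, which entered through KMS18, is left out of the counts that follow. Of the other 9 genes, 7 were higher and 1 lower in KMS18 than in MM.1s, where 30.8% of all genes passed as higher and 34.5% as lower. KMS18 had 5 of the 9 higher and 2 lower than RPMI8226, beside 35.2% and 35.1% of all genes. MM.1s had 2 higher and 6 lower than RPMI8226, beside 35.9% and 33.2%. One of the lower calls in KMS18 against RPMI8226, that of MTHFD1 (-0.28, adjusted p = 0.0376), was lost without the CD28 shRNA libraries (-0.21, adjusted p = 0.0914), without those with CD86 shRNA (-0.25, adjusted p = 0.132) and with no minimum level (adjusted p = 0.055). The median log2 difference of the 9 genes was 1.41 for KMS18 against MM.1s and 0.89 for KMS18 against RPMI8226, where the medians of all genes were -0.02 and 0.01. The members' median for MM.1s against RPMI8226 was -0.52, beside 0.03 for all genes.

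CD86 shRNA gave lower estimates than Vec for 9 of the 10 genes, and none passed at an adjusted p of 0.05. The gene with the lowest estimate was MTHFD2. With Vec it stood at 99.4 FPKM in MM.1s, 117 in RPMI8226 and 174 in KMS18, with the Mcl1 line at 124, and with CD86 shRNA at 51.2, 74.3, 71.3 and 73.1 FPKM in that order. Each background was lower with CD86 shRNA, and the highest CD86 shRNA library was below the lowest Vec library. The mean was 52.1% ± 11.4 of Vec (SD, n = 3 parental lines) and 58.9% in the Mcl1 line. The log2 difference was -0.95 (SE 0.28; limma, adjusted p = 0.191). Against the mean of Vec and Gapdh shRNA it was -0.54 (adjusted p = 0.287).

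The serine synthesis genes were lower with CD86 shRNA in every background. PHGDH was at 58.3% ± 12.8 of Vec in the parental lines and 59.5% in the Mcl1 line (log2 difference -0.59, SE 0.17, adjusted p = 0.193). PSPH stood at 4.80, 9.88, 21.7 and 17.5 FPKM with Vec and at 2.97, 7.36, 12.1 and 10.8 FPKM with CD86 shRNA in MM.1s, RPMI8226, KMS18 and the Mcl1 line. It had the smallest adjusted p of the 10 genes (log2 difference -0.57, SE 0.15, adjusted p = 0.132), and its level ranged from 56.0% to 74.5% of Vec in the parental lines. PSAT1 ranged more widely, from 41.6% of Vec in KMS18 to 96.6% in RPMI8226 (log2 difference -0.57, SE 0.22, adjusted p = 0.297), and without KMS18 its difference was -0.23.

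SHMT2 was lower with CD86 shRNA in all 4 backgrounds. It stood at 94.6, 113, 247 and 139 FPKM with Vec and at 70.8, 94.4, 152 and 114 with CD86 shRNA in MM.1s, RPMI8226, KMS18 and the Mcl1 line. The log2 difference was -0.45 (SE 0.13; adjusted p = 0.161). SHMT1 showed no common direction, at 120% of Vec in MM.1s, 104% in RPMI8226 and 93.8% in KMS18, with the Mcl1 line at 82.7% (log2 difference 0.07, 95% interval -0.21 to 0.35). ALDH1L2 was at 40.2% of Vec in MM.1s, 47.1% in KMS18 and 37.3% in the Mcl1 line but at 104% in RPMI8226, where it rested on 14 to 30 reads per library (log2 difference -0.60, SE 0.20, adjusted p = 0.241). MTHFD1 was at 81.2% ± 12.2 of Vec and MTHFD1L at 82.0% ± 11.9 (adjusted p 0.348 and 0.394). ASNS was at 106% of Vec in MM.1s, 90.1% in RPMI8226 and 66.8% in KMS18, with the Mcl1 line at 61.7% (log2 difference -0.21, 95% interval -0.51 to 0.08). Its lines did not share a direction.

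**Figure D2:**
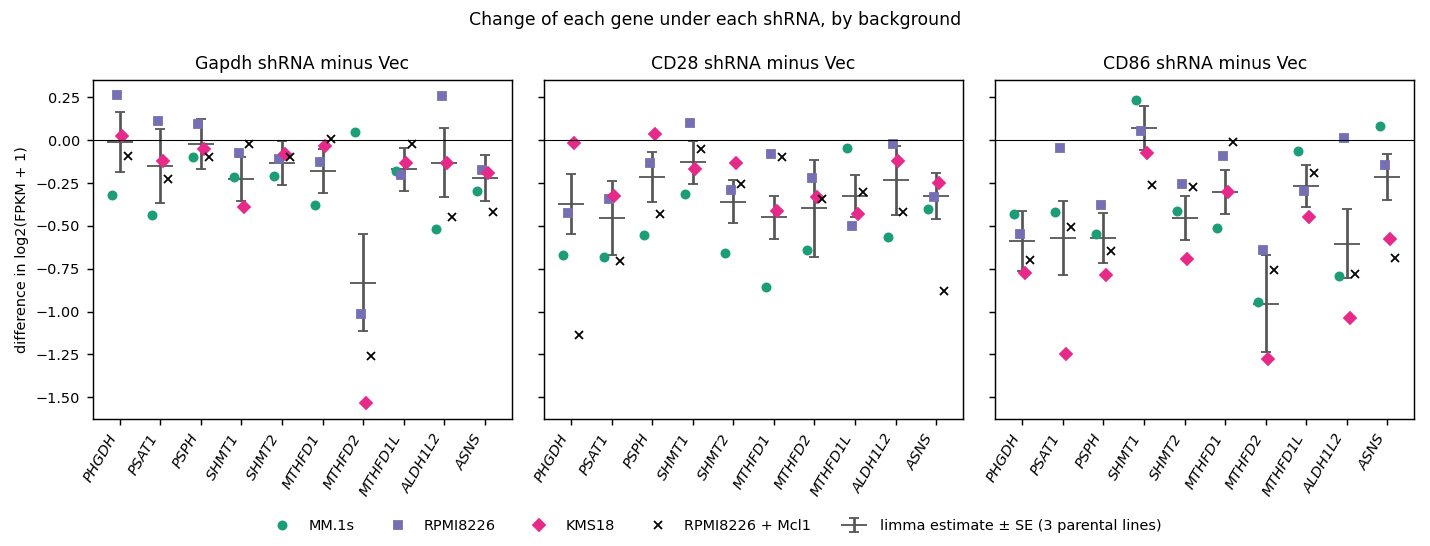
Difference in log2(FPKM + 1) from Vec for each of the 10 genes under Gapdh, CD28 and CD86 shRNA, with 1 symbol per background. The horizontal bars and whiskers are the limma estimate and its SE over the 3 parental lines. All 10 estimates lie below 0 under the Gapdh shRNA control and under CD28 shRNA, and 9 under CD86 shRNA. MTHFD2 has the lowest estimate under Gapdh and CD86 shRNA.

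With CD86 shRNA 0 of the 10 genes passed, where 0.566% of the 11316 genes tested passed as lower (64 genes). At an unadjusted p below 0.05, 7 of the 10 were lower, beside 6.55% of all genes. The median log2 difference was -0.51 for the 10 genes and 0.02 for all genes, and 7 of the 10 were below Vec in all 4 backgrounds. The test on recovered reads (voom) called 5 of the 10 as lower, MTHFD2, ALDH1L2, PHGDH, PSPH and SHMT2, where it called 1.63% of all genes. A fit over all 4 backgrounds, chosen after seeing the data, called ALDH1L2, PSPH and SHMT2, where 1.89% of genes passed as lower. That fit counts RPMI8226 and the Mcl1 line derived from it as separate lines, though they are not independent. In the authors' deposited table the same 5 genes as with voom were lower at a false discovery rate below 0.05, where 1.55% of its genes were. MTHFD2 had a deposited log2 fold change of -0.98 and a false discovery rate of 2.48e-10, beside -0.95 and an adjusted p of 0.191 with limma. These calls come from the same libraries and are not independent of each other. The 10 genes were chosen with earlier results of these data known, so their shares beside all genes are descriptive. Of the 9 plasma cell markers, 2 passed as lower with CD86 shRNA (median -0.42) and 0 with CD28 shRNA (median -0.17), and their part in the members' estimates was not tested.

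CD28 shRNA gave estimates below 0 for all 10 genes, as the Gapdh shRNA control did (medians -0.34 and -0.16). None passed at an adjusted p of 0.05 with CD28 shRNA. MTHFD1 had the smallest adjusted p. It stood at 32.6, 40.8, 36.1 and 44.3 FPKM with Vec and at 17.5, 38.5, 26.9 and 41.4 FPKM with CD28 shRNA in MM.1s, RPMI8226, KMS18 and the Mcl1 line. Each background was lower, most of all MM.1s at 53.9% of Vec, and least RPMI8226 at 94.3%. The log2 difference was -0.45 (SE 0.13; limma, adjusted p = 0.0839), and -0.25 without MM.1s.

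Among the serine synthesis genes, PSAT1 was at 72.9% ± 9.93 of Vec with CD28 shRNA in the parental lines and at 60.8% in the Mcl1 line (log2 difference -0.45, SE 0.22, adjusted p = 0.279). PHGDH was at 56.2% to 98.8% of Vec in the parental lines, the latter in KMS18, and at 42.8% in the Mcl1 line (-0.37, SE 0.17, adjusted p = 0.271). PSPH was at 61.6% in MM.1s and at 103% in KMS18 (-0.22, SE 0.15, adjusted p = 0.454). ASNS was lower by a similar share in each parental line, 79.3% ± 4.58 of Vec, and stood at 53.7% in the Mcl1 line (-0.33, SE 0.13, adjusted p = 0.208). SHMT2 was at 78.6% ± 14.4 of Vec (-0.36, SE 0.13, adjusted p = 0.148), MTHFD1L at 79.0% ± 15.0 (-0.33, adjusted p = 0.174) and MTHFD2 at 76.3% ± 11.4 (-0.40, SE 0.28, adjusted p = 0.482). The MTHFD2 estimate turned to 0.02 when the mean of Vec and Gapdh shRNA served as the control. ALDH1L2 (-0.23) and SHMT1 (-0.13) had adjusted p of 0.566 and 0.626.

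With CD28 shRNA 0 of the 10 genes passed, where 2.11% of all genes passed as lower (239 genes), and 4 of the 10 were lower at an unadjusted p below 0.05, beside 11.3% of all genes. The median log2 difference was -0.34 for the 10 genes and 0.00 for all genes. Of the 10 genes, 8 were below Vec in all 4 backgrounds; the exceptions were PSPH in KMS18 and SHMT1 in RPMI8226. The fit over all 4 backgrounds called 5 of the 10 as lower (MTHFD1L, PHGDH, ASNS, MTHFD1 and SHMT2, adjusted p 0.0317 to 0.0487), where 5.95% of genes passed as lower. RPMI8226 and its Mcl1 derivative, which are not independent, count as separate lines in that fit. In the authors' deposited table MTHFD1 alone was lower at a false discovery rate below 0.05 (0.0249), beside 2.7% of its genes. With 3914513 to 4577443 reads in genes, the CD28 shRNA libraries had the lowest depth within their background, and the part of this depth in the estimates was not tested.

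The Gapdh shRNA control gave 0 calls among all genes (0% of 11316), the targeted GAPDH included, and 402 genes at an unadjusted p below 0.05; voom also called 0. MTHFD2 was the 1 member among those 402. It stood at 103 FPKM in MM.1s, 57.3 in RPMI8226 and 59.4 in KMS18, with the Mcl1 line at 51.2. These values were 104%, 49.1%, 34.1% and 41.2% of the respective Vec library. GAPDH stood at 53.0%, 34.3%, 10.7% and 21.3% of Vec in the same libraries. MM.1s, where GAPDH was lowered least, was the background in which MTHFD2 was not lower; whether these levels are related was not tested. The log2 difference of MTHFD2 was -0.83 (SE 0.28; limma, adjusted p = 1.00), and -1.27 without MM.1s (adjusted p = 0.171). The other 9 genes had estimates between -0.23 and -0.01, and 5 of the 10 genes were below Vec in all 3 parental lines. All 10 estimates were below 0, beside 10 with CD28 shRNA and 9 with CD86 shRNA, each against the same Vec libraries. The median with Gapdh shRNA was -0.16 for the 10 genes and -0.01 for all genes. The control shRNA thus gave MTHFD2 levels lower than those with CD86 shRNA in 3 of the 4 backgrounds.

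**Figure D3:**
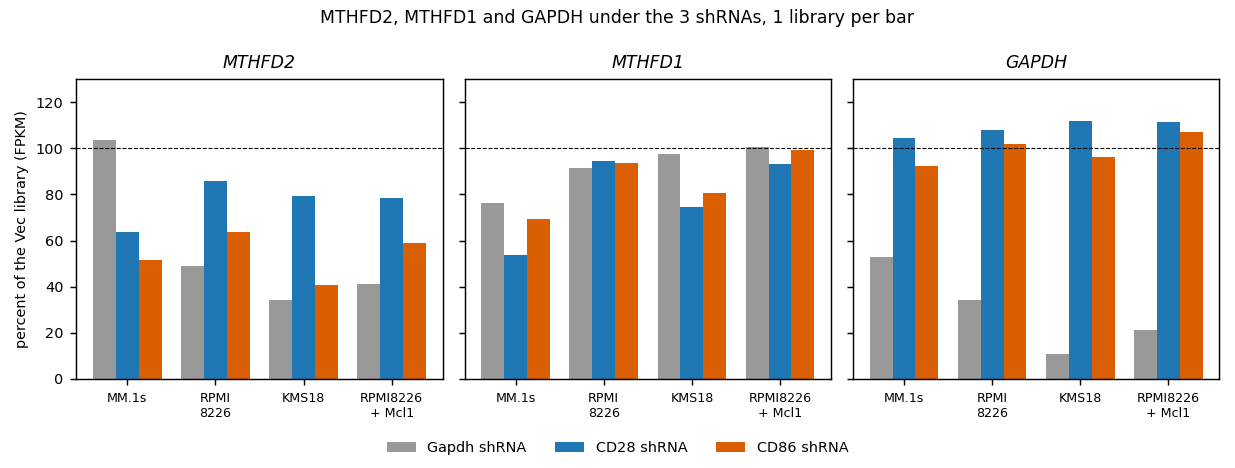
Level in percent of the Vec library of the same background (FPKM, 1 library per bar, no error bar) for MTHFD2, MTHFD1 and GAPDH under Gapdh, CD28 and CD86 shRNA; the dashed line marks the Vec level. MTHFD2 under Gapdh shRNA is at 104% of Vec in MM.1s and at 34.1% to 49.1% in the other backgrounds, while MTHFD1 under the same shRNA is at 76.3% to 100% in all 4.

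CD86 and CD28 shRNA were compared directly, and 0 of the 10 genes passed, where 9.51% of all genes did. MTHFD2 was at 51.2 FPKM with CD86 shRNA and 63.2 with CD28 shRNA in MM.1s, at 74.3 and 99.98 in RPMI8226 and at 71.3 and 138 in KMS18, with the Mcl1 line at 73.1 and 97.6. It was lower with CD86 shRNA in each background, by a log2 difference of -0.56 (95% interval -1.18 to 0.07, adjusted p = 0.24). PSPH had a difference of -0.36 (interval -0.68 to -0.03, adjusted p = 0.149) and ALDH1L2 of -0.37 (interval -0.81 to 0.07, adjusted p = 0.269). The intervals of ASNS (-0.18 to 0.41), MTHFD1 (-0.13 to 0.43) and MTHFD1L (-0.22 to 0.33) lay on both sides of 0. PHGDH, PSAT1 and SHMT2 had estimates of -0.21, -0.12 and -0.09, which turned to 0.06, 0.28 and 0.14 without KMS18. These intervals do not show that the 2 shRNAs act alike. With voom, ALDH1L2, PHGDH and PSPH passed as lower with CD86 shRNA (6.81% of all genes), and in the authors' deposited table MTHFD2 and ALDH1L2 did (5.9% of its genes).

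The line overexpressing Mcl1 had higher levels of most of these genes than its parent. Over the 4 shRNAs taken as pairs, 8 of the 9 tested genes were higher and none lower, where 19.5% of 11024 genes passed as higher. PHGDH was at 8.46 to 19.8 FPKM in the Mcl1 line and at 0.637 to 1.87 in RPMI8226, without overlap and 12.5 times as high by the means (log2 difference 2.81, SE 0.13; limma, adjusted p = 1.40e-05). PSAT1 was at 45.4 to 74.7 FPKM against 16.1 to 22.5, also without overlap and 2.97 times as high (1.51, SE 0.08, adjusted p = 2.03e-05). PSPH (0.58), ASNS (0.63) and SHMT1 (0.51) were higher by smaller amounts, with adjusted p of 0.00121, 0.00224 and 0.00212, and all 4 Mcl1 libraries were above all 4 parental ones for each of the 3.

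Of the other folate genes, 3 passed as higher in the Mcl1 line. MTHFD1L was higher by 0.35 (SE 0.07, adjusted p = 0.00627), SHMT2 by 0.30 (SE 0.03, adjusted p = 0.000645) and MTHFD1 by 0.16 (SE 0.05, adjusted p = 0.0346). The MTHFD1 call was lost with median-of-ratios scaling and without the Vec, Gapdh or CD86 shRNA pair of libraries. MTHFD2 did not pass, at -0.03 (95% interval -0.15 to 0.08, adjusted p = 0.649), and its 4 pairs of libraries were close, such as 124 and 117 FPKM with Vec. ALDH1L2 ranged from 0.749 to 2.01 FPKM against 0.305 to 0.585, and passed only when no minimum level was set (0.71, SE 0.15, adjusted p = 0.0231). The median difference was 0.51 for the 9 genes and 0.03 for all genes. Since the Mcl1 background is 1 derived line, Mcl1 and other differences of that line cannot be told apart.

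The response to the shRNAs in the Mcl1 line was tested against the mean response of the parental lines, and 0 of the 10 genes passed for any shRNA (adjusted p 1.00). For CD28 shRNA the widest differences were those of PHGDH (-0.76, SE 0.35) and ASNS (-0.56, SE 0.27), both with a more negative response in the Mcl1 line. For CD86 shRNA the differences ran from ASNS at -0.47 (SE 0.27) to MTHFD1 at 0.29 (SE 0.25). With 1 Mcl1 library per shRNA these tests resolve only large differences.

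The 10 genes were also described by how they varied together. With each gene's log2(FPKM + 1) centred within its background, the 45 pairs had a median Pearson r of 0.47 over 16 libraries (range -0.02 to 0.91), and 43 were above 0. The highest were PSAT1 with SHMT2 (0.91), PSPH with SHMT2 (0.90) and PSPH with ALDH1L2 (0.88). MTHFD2 (median r 0.26) and SHMT1 (0.05) varied least with the others, and PSAT1 most (0.81). These points share libraries and depth, and the same 4 shRNAs recur in each background. Of 11339 genes, those most like the mean of the 10 members over the 16 libraries were GPT2 (r = 0.96), a mitochondrial alanine aminotransferase, MARS and GARS (both 0.94), the tRNA synthetases for methionine and glycine, SAMD1 (0.93) and ARF1 (0.91). GPT2 was at 64.5% ± 18.2 of Vec with CD28 shRNA and at 65.1% ± 21.3 with CD86 shRNA (adjusted p 0.113 and 0.196).

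**Figure D4:**
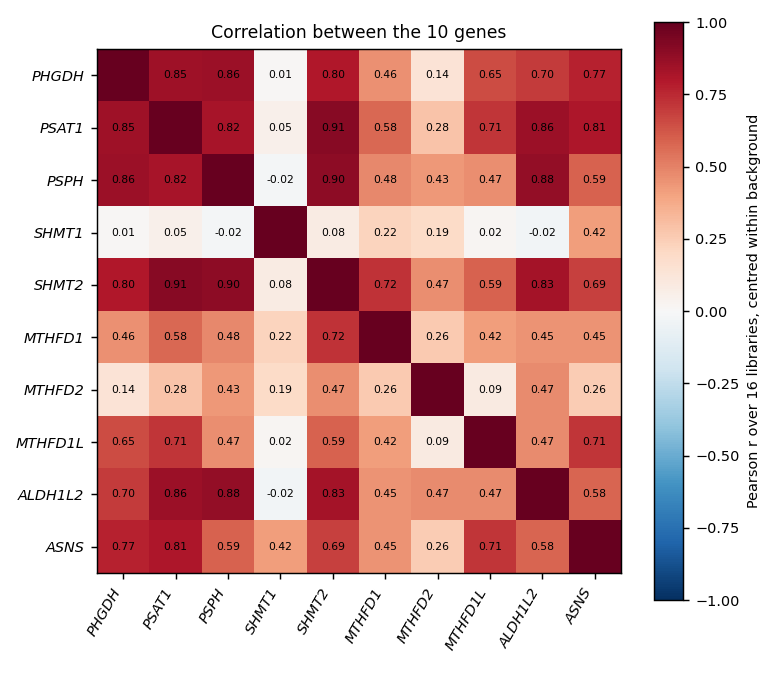
Pearson r between each pair of the 10 genes over 16 libraries, after centring log2(FPKM + 1) within each background. SHMT1 has a median r of 0.05 and MTHFD2 of 0.26 with the other genes, against 0.81 for PSAT1.

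ATF4 itself and its other targets were read beside the 10 genes. ATF4 mRNA was at 93.1% ± 17.6 of Vec with CD86 shRNA and at 96.1% ± 7.08 with CD28 shRNA in the parental lines, with log2 differences of -0.12 (95% interval -0.36 to 0.12) and -0.06 (interval -0.30 to 0.18). These are transcript levels, and the protein and activity of ATF4 were not measured in these libraries. CHAC1, a glutathione-degrading ATF4 target, was at 33.5% ± 17.8 of Vec with CD86 shRNA (log2 difference -1.07, SE 0.21, limma, adjusted p = 0.0558). It was below Vec in all 4 backgrounds. It passed in the fit over all 4 (limma, adjusted p = 0.0215), which counts RPMI8226 and its Mcl1 derivative as separate lines. It rested on 10 reads against 22 with Vec in MM.1s and on 4 against 30 in RPMI8226. Under the Gapdh shRNA control CHAC1 was at 48.5% of Vec in MM.1s and 53.5% in RPMI8226. It was at 113% in KMS18 and 125% in the Mcl1 line under that control. The pseudokinase gene TRIB3 (-0.46) and DDIT3 (-0.39), which encodes the stress factor CHOP, had adjusted p of 0.483 and 0.698 with CD86 shRNA. Of the 18 tested genes in the list of ATF4 regulators and targets, 1 passed as lower with CD86 shRNA, EIF2S1 (-0.64, adjusted p = 0.0178), which encodes the initiation factor subunit phosphorylated in the integrated stress response. The EIF2S1 call against Vec was lost with any 1 line left out (adjusted p 0.0733 to 0.282). The list had a median of -0.26 with CD86 shRNA and -0.06 with CD28 shRNA. With CD86 against CD28 shRNA, 3 of the 18 passed as lower and 1 as higher (median -0.38, beside 0.03 for all genes). The lower ones were the transcription factor gene ATF3 (-0.80, adjusted p = 0.0277), PPP1R15A (-0.72, adjusted p = 0.0291), which encodes a phosphatase subunit that reverses the phosphorylation of EIF2S1, and EIF2S1 itself (-0.60, adjusted p = 0.00553). ATF3 and PPP1R15A had estimates above Vec with CD28 shRNA (0.52 and 0.56) and below Vec with CD86 shRNA (-0.28 and -0.16), and none of these 4 passed. Without MM.1s or without KMS18 all 3 calls of CD86 against CD28 shRNA were lost (adjusted p 0.055 to 0.203), and without RPMI8226 that of PPP1R15A was (0.0893), while with no minimum level those of ATF3 and PPP1R15A were (0.0662 and 0.0684). In the Mcl1 line, 11 of the 19 tested genes of the list were higher than in RPMI8226 and none lower. Of all genes, 19.5% passed as higher (median 0.35 for the list and 0.03 for all genes). Among the higher were CHAC1 (1.08, limma, adjusted p = 0.00442) and DDIT3 (0.74, adjusted p = 0.00187), while ATF4 mRNA did not pass (0.04, adjusted p = 0.463).

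Against Vec, lists of neighbouring pathways had medians nearer 0 than the 10 genes (-0.34 with CD28 shRNA and -0.51 with CD86 shRNA). Of 20 tRNA synthetases, 0 passed under CD28 or CD86 shRNA, with 17 estimates below 0 in each and medians of -0.19 and -0.20. The Gapdh shRNA control had 18 of these 20 estimates below 0, with a median of -0.07. Of 16 tested genes of the rest of the folate cycle, 0 passed in any shRNA comparison (medians -0.01 with CD28 shRNA and -0.10 with CD86 shRNA), and likewise 0 of 9 genes of the methionine cycle and transsulfuration (-0.11 and -0.16). Of 12 tested purine synthesis genes, PAICS, a bifunctional enzyme of the pathway that consumes glycine and formyl-folate, fell with CD28 shRNA, to 57.5% ± 7.93 of Vec (log2 difference -0.80, SE 0.09, adjusted p = 0.00184). IMPDH1, which leads from IMP towards guanine nucleotides, fell with CD86 shRNA, to 65.1% ± 1.17 of Vec (-0.60, SE 0.10, adjusted p = 0.0324). Of 14 tested genes of serine and glycine transport and use, SERINC1 fell with CD86 shRNA, to 47.7% ± 8.41 of Vec (-1.05, SE 0.14, adjusted p = 0.0127). SFXN1, the mitochondrial serine carrier, was higher with CD86 than with CD28 shRNA (0.52, SE 0.09, adjusted p = 0.00612), at 116% ± 11.1 and 79.5% ± 6.21 of Vec. MYC, a transcription factor with many targets among nucleotide synthesis genes, fell with CD28 shRNA, to 70.6% ± 20.2 of Vec (-0.54, SE 0.13, adjusted p = 0.0497), and did not pass with CD86 shRNA (-0.17, adjusted p = 0.6). Of the 15 tested genes of aspartate, glutamine and proline metabolism, 0 passed against Vec. SERINC1 (-1.04, adjusted p = 0.00228) and IMPDH1 (-0.67, adjusted p = 0.00454) were also lower, and PAICS higher (0.36, adjusted p = 0.0322), with CD86 than with CD28 shRNA. The SERINC1 call of that comparison held with each line left out (adjusted p 0.0176 to 0.029), that of IMPDH1 without MM.1s only (otherwise 0.054 and 0.0731) and that of PAICS in no case (0.0964 to 0.201). Of the other calls, few held with a line left out. IMPDH1 against Vec (adjusted p 0.118 to 0.376), SERINC1 against Vec (0.0595 to 0.229) and SFXN1 (0.0596 to 0.0707) lost theirs whichever line was left out, while their estimates stayed at -0.62 to -0.60, -1.16 to -0.91 and 0.49 to 0.57. PAICS kept its call with CD28 shRNA without MM.1s or RPMI8226 and lost it without KMS18 (-0.71, adjusted p = 0.0603). The MYC call was lost without MM.1s (-0.42, adjusted p = 0.341) or KMS18 (-0.44, adjusted p = 0.287), and also with pseudocount 0.1, with no minimum level and with median-of-ratios scaling (adjusted p 0.0531 to 0.12). With no minimum level IMPDH1 also lost its call against Vec (adjusted p = 0.0794).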

How the data were processed

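mRNA of 16 libraries was sequenced (Illumina TruSeq mRNA, per the labels' protocols). The authors deposited 1 table with FPKM per gene and library, exon lengths and, for 3 comparisons, their own p-value, false discovery rate and log2 fold change. Per the submitters' processing notes, which give no roles, edgeR 3.12.1 under R 3.2.2, TopHat2 2.0.13 and Picard were used, and the builds named are GRCh37, hg19 and mm9. With no strand setting stated, overlapping genes and near-identical copies cannot be told apart. The name of the deposited table holds "exc" before Gapdh and RPMI8226_MCL1, which reads as leaving out those libraries. No list of the libraries in the deposited comparisons is given. The fit of the parental lines used here kept the Gapdh shRNA libraries. The 10 members and all gene lists were chosen with earlier results of these data known.

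Differences were tested with limma 3.58.1 (R 4.3.3, trend) on log2(FPKM + 1) for every gene whose mean reached 1 FPKM, with terms for shRNA and line (12 libraries, 6 residual degrees of freedom); the Mcl1 line and RPMI8226 were compared over 8 libraries paired by shRNA (3 residual degrees of freedom). P-values were adjusted by Benjamini-Hochberg over all tested genes, with a threshold of 0.05. The interaction used all 16 libraries; that for Gapdh shRNA was added after seeing the data. FPKM multiplied by exon length gave whole reads for 100% of values (tolerance 0.02), used for depth and for voom. All 16 library totals were even, so mates may have been counted separately. The fit was tested on simulated data. Genes outside the 10 were named if targeted (CD28, CD86, GAPDH), if ATF4, DDIT3, TRIB3, CHAC1 or MYC, if among the 3 largest changes past the threshold in a list, or if among the 5 most like the members' mean. A gene that this rule names is not reported here. Motifs were searched with Python 3.11.15. Alternatives were another pseudocount (0.1), no minimum level, median-of-ratios scaling, voom, no line term, pooled controls and leaving out each line or shRNA.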

Additional observations from a re-analysis of the deposited data

Results flagged for a closer look

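MTHFD1 under Gapdh shRNA was below Vec in all 3 parental lines, while in the Mcl1 line the difference in log2(FPKM + 1) was 0.0053, on the other side of 0. The difference between the Mcl1 line and the mean of the parental lines was 0.18 (SE 0.25; limma, adjusted p = 1.00) and did not pass.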

How the results depend on the processing

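With another pseudocount (0.1) or median-of-ratios scaling the counts of called genes stayed within 1.5 times for the comparisons of CD28 and CD86 shRNA with Vec and with each other; the cause of the changes listed here was not tested. For CD28 shRNA against Vec, 320 genes were called, and 147 with no minimum level, 609 with voom, 0 with no line term, 583 with the mean of Vec and Gapdh shRNA as control, 1036 over all 4 backgrounds and 33 to 132 with a line left out (33 without KMS18, 38 without MM.1s, 132 without RPMI8226). For CD86 shRNA against Vec, 71 were called, and under the same settings 30, 243, 0, 205, 282 and 0 to 9 (5 without MM.1s, 9 without RPMI8226, 0 without KMS18). For CD86 against CD28 shRNA, 1076 were called, and 605 with no minimum level, 1666 with voom, 0 with no line term, 2122 over all 4 backgrounds and 137 to 525 with a line left out. Gapdh shRNA gave 0 to 2. With no line term, 204, 83, 15 and 350 genes had an unadjusted p below 0.05 for CD28, CD86 and Gapdh shRNA against Vec and CD86 against CD28 shRNA. Among the 10 members, calls went from 0 to 5 with voom and 3 over all 4 backgrounds for CD86 shRNA, from 0 to 5 over all 4 backgrounds for CD28 shRNA and from 0 to 3 with voom for CD86 against CD28 shRNA. The fit over all 4 backgrounds counts RPMI8226 and its Mcl1 derivative as separate lines. The Mcl1 response to CD28 shRNA gave 1 call over all genes, 6 with pseudocount 0.1, 113 with no minimum level and 0 to 2 with a line left out; that to CD86 shRNA gave 0, 4 and 115. Median-of-ratios scaling moved the higher calls of CD86 against CD28 shRNA from 612 of 1076 to 497 of 1069.

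Some directions turned. MTHFD2 under CD28 shRNA, at -0.40 against Vec, was 0.019 against the pooled controls, and SHMT1 under CD86 shRNA was -0.012 over all 4 backgrounds and -0.011 to 0.145 with a line left out. Under Gapdh shRNA, PHGDH was 0.024 with pseudocount 0.1 and 0.0061 with median-of-ratios scaling. With a line left out, PHGDH ran from -0.147 to 0.144, PSPH from -0.077 to 0.022 and ALDH1L2 from -0.327 to 0.064 under Gapdh shRNA. For CD86 against CD28 shRNA, PHGDH ran from -0.441 to 0.058, PSAT1 from -0.330 to 0.280, SHMT2 from -0.263 to 0.139, MTHFD1L from -0.019 to 0.094 and ASNS from -0.071 to 0.334. With a shRNA left out, MTHFD2 ran from -0.470 to 0.026 for MM.1s against RPMI8226 and from -0.073 to 0.011 for the Mcl1 line against RPMI8226.
Fewer samples are left in each leave-one-out fit, and reads per gene of 14 to 48 limit PHGDH and ALDH1L2 in RPMI8226. No paired analysis beyond the line and shRNA terms was possible because each combination has 1 library with no replicate number.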
